A study of Mus musculus with 4 samples.

Results

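The suppressors of cytokine signalling (SOCS) and the protein inhibitors of activated STAT (PIAS) were examined as a group of 10 mouse genes, Socs1 to Socs7, Cish, Pias1 and Pias3. They were chosen by name from the 24346 gene symbols of the deposited expression tables. The samples were MC38 cells, which come from a carcinoma of the mouse colon. Of 4 libraries, 2 carry the label wild type (WT) and 2 the label Arid5a knockout (KO); these are called the WT-labelled and the KO-labelled pair. No treatment or time point is named for either group, and the labels do not say whether the 2 libraries of a group came from separate cultures or clones. P-values therefore measure only the spread between these libraries, which may be technical. Levels are FPKM, fragments per kilobase of transcript scaled to the mapped fragments of the library, so genes can be compared per unit of transcript length.

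Cytokines such as interferons and interleukin-6 act through receptors that carry Janus kinases (JAKs), which phosphorylate STAT transcription factors. Some SOCS proteins are made in response to STATs and close the loop. The SH2 domain of SOCS proteins binds phosphorylated receptors or JAKs. A SOCS box recruits elongins and a cullin ubiquitin ligase that marks the bound protein for degradation. PIAS proteins are present without a stimulus, bind STATs in the nucleus and act as ligases for the ubiquitin-like protein SUMO. In tumour cells these brakes limit how strongly the cells answer to interferon and to cytokines of the interleukin-6 family.

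Arid5a, the targeted gene and a protein that binds mRNAs, went against the labels. It stood at 0.225 and 0.124 FPKM in the WT-labelled pair and at 2.16 and 1.77 FPKM in the KO-labelled pair (log2 change 1.33 ± 0.13, SE; limma, adjusted p = 0.0013). Arid5a reached the mean of 1 FPKM needed for testing only through the KO-labelled pair, in which it was high. With no filter it was called as well (limma, adjusted p = 0.00256). Gene-level values carry no information on the exons covered, and the deleted part is not given in the sources used here. Whether the labels of the pairs were exchanged cannot be told from these values, and if they were, every direction below would turn. Each direction therefore refers to the label, not to a loss of Arid5a. Estimated depth ranged from 10300000 to 15400000 fragments per library. All 13 markers of colon epithelium, Epcam and Cdh1 among them, were below 1 FPKM in every library. Of 8 markers of fibroblasts and mesenchymal cells, 6 were tested, 1 was higher and 3 were lower, and their summed level was 1412 and 1384 FPKM in the WT-labelled pair and 1183 and 1190 FPKM in the KO-labelled pair. The filament gene Vim made up most of that sum, at 1367 and 1343 against 1163 and 1169 FPKM (log2 change -0.22; limma, adjusted p = 0.00188). The collagen gene Col3a1 (29.3 and 26.4 against 6.78 and 6.86 FPKM) and the proteoglycan gene Dcn (5.13 and 4.53 against 0.613 and 0.993 FPKM) were lower, and Col1a1 (0.275 and 0.246 against 2.14 and 1.95 FPKM) was higher. Dcn and Col1a1 each reached the mean of 1 FPKM only through the pair in which they were high. Pdgfra and Pdgfrb were not called, Col1a2 did not exceed 0.461 FPKM, and Thy1 was at 0 in 3 of 4 libraries. For leukocytes, 16 listed markers could be looked up, of which 13 were too low for testing, 8 of them at 0 in all 4 libraries, and Ptprc, the general leukocyte marker, did not exceed 0.0854 FPKM. Their summed level was 19.3 and 23.3 FPKM in the WT-labelled pair and 15.1 and 16.5 FPKM in the KO-labelled pair. Cd68 (6.14 and 5.8 against 1.03 and 1.67 FPKM) and S100a8 (1.77 and 4.61 against 1.06 and 0 FPKM; limma, adjusted p = 0.0489) were lower and Cd14 (9.18 and 10.1 against 12 and 13.8 FPKM) was higher in the KO-labelled pair. S100a8 reached the mean of 1 FPKM only through the WT-labelled pair, its replicates were far apart, and its adjusted p was close to the threshold of 0.05. The part of such markers in the results below was not tested.

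Of the 10 genes, 8 reached a mean of 1 FPKM and were tested. In the KO-labelled pair, 3 of them were lower: Socs5, which fell to about the level of its paralog Socs4, and the JAK inhibitors Socs3 and Socs1. None was higher by the same limma test (0 of 8, beside 24.4% of all tested genes; 1, Socs7, at an unadjusted p under 0.05), and Socs4, Socs6, Socs7, Pias1 and Pias3 were not called. Calls were made with limma across all genes, at a Benjamini-Hochberg adjusted p under 0.05. The share called, 37.5%, lies beside a background of 47.6% of all 10827 tested genes, and the share called lower, also 37.5%, beside 23.3%. The median log2 change of the 8 genes was -0.09, against 0.006 over all tested genes, and their median absolute change was 0.20 against 0.18. With so few genes, these shares do not set the group apart from other genes. In bulk RNA, fewer cells of a type and less RNA per cell cannot be told apart.

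**Figure D1:**
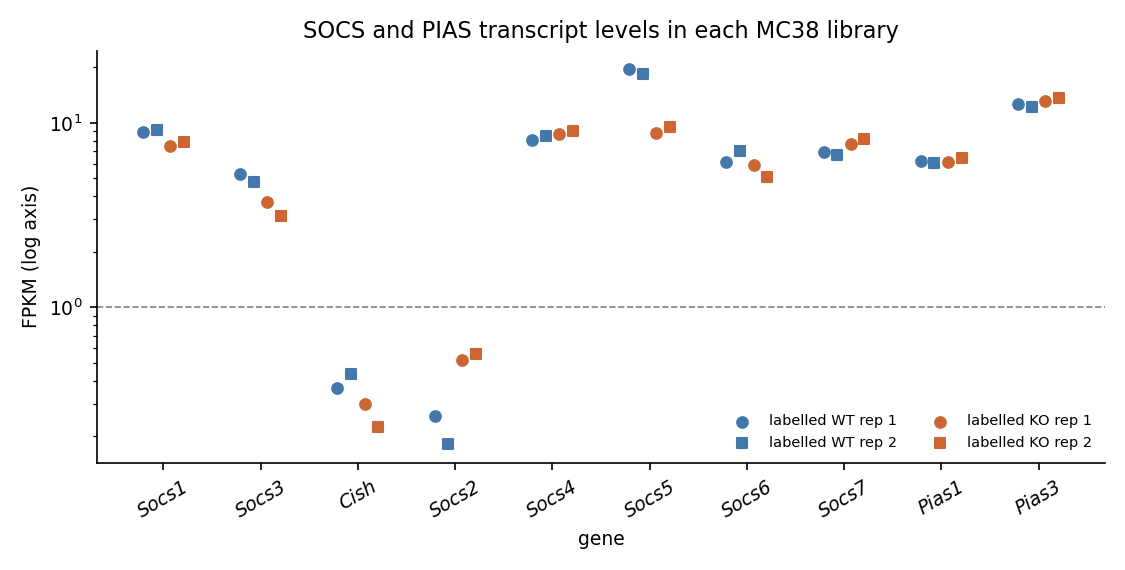
FPKM of each gene (log axis) in the 4 MC38 libraries, with blue for libraries labelled WT, orange for those labelled KO, circles for replicate 1 and squares for replicate 2. The dashed line marks 1 FPKM, the mean needed for testing. Socs5 stands at 18.5 and 19.5 FPKM in the WT-labelled pair and at 8.84 and 9.46 FPKM in the KO-labelled pair, and Cish and Socs2 lie below the line in every library.

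Socs5 and Socs4 are close relatives with long amino-terminal regions, and both are known for a role in the turnover of the EGF receptor as well as in cytokine signalling. Socs5 (ENSMUSG00000037104.9, chromosome 17, 87107679 to 87137839, plus strand, GRCm38) was measured at 19.5 and 18.5 FPKM in the WT-labelled pair and at 8.84 and 9.46 FPKM in the KO-labelled pair. The groups were far apart relative to their spread, with means of 18.96 ± 0.712 FPKM (SD, n = 2) and 9.15 ± 0.444 FPKM (SD, n = 2). The mean in the KO-labelled pair was 0.483 of that in the WT-labelled pair. On the log2(FPKM + 1) scale the change was -0.98 ± 0.058 (SE; limma, adjusted p = 0.000354), with a 95% interval of -1.12 to -0.83. Only 3.23% of all tested genes had a change at least as large in either direction. The call held in all 14 alternatives, with log2 changes from -1.04 to -0.93 and adjusted p from 3.63e-05 to 0.00602 (limma). On its longest coding transcript of 4648 bases, these levels correspond to about 1327 and 965 fragments against 404 and 480. Socs4 (chromosome 14, 47276931 to 47296102, plus strand) stood at 8.06 and 8.46 FPKM against 8.69 and 9.09 FPKM. Its groups did not overlap, but the difference of 0.09 ± 0.060 (SE; limma, adjusted p = 0.239) was not called, with a 95% interval of -0.06 to 0.25. The level of Socs5 was 2.42 and 2.18 times that of Socs4 in the WT-labelled pair. In the KO-labelled pair it was 1.02 and 1.04 times, so the pair had nearly equal levels there.

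The genes around Socs5 went in both directions. Of its 20 nearest tested genes, all within 2.56 Mb, 4 were called higher and 4 lower, beside 24.4% and 23.3% of all tested genes. The median log2 change of the 20 neighbours was 0.01. Closer by, Rhoq, a small GTPase, was higher by 0.92 ± 0.084 (SE; limma, adjusted p = 0.00114) and Pigf, an enzyme of GPI anchor synthesis, was lower at -0.37 ± 0.076 (adjusted p = 0.0137). Cript and Mcfd2, the neighbours nearest on either side, differed by 0.13 ± 0.051 (limma, adjusted p = 0.0965) and -0.11 ± 0.048 (adjusted p = 0.109), and neither was called. Chromosome 17 as a whole had a median of 0.013 over 536 other tested genes. The 3 genes whose centred log2 values lay nearest to those of Socs5 over the 4 libraries were Itgal, an integrin chain of leukocytes, at a distance of 0.055, Irgm2, an interferon-inducible GTPase, at 0.064, and Pnma3 at 0.064. Irgm2 was measured at 16.6 and 15.4 against 7.67 and 8.34 FPKM. In all, 14 genes lay within a distance of 0.1, and over only 4 libraries such likeness is a coarse measure.

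**Figure D2:**
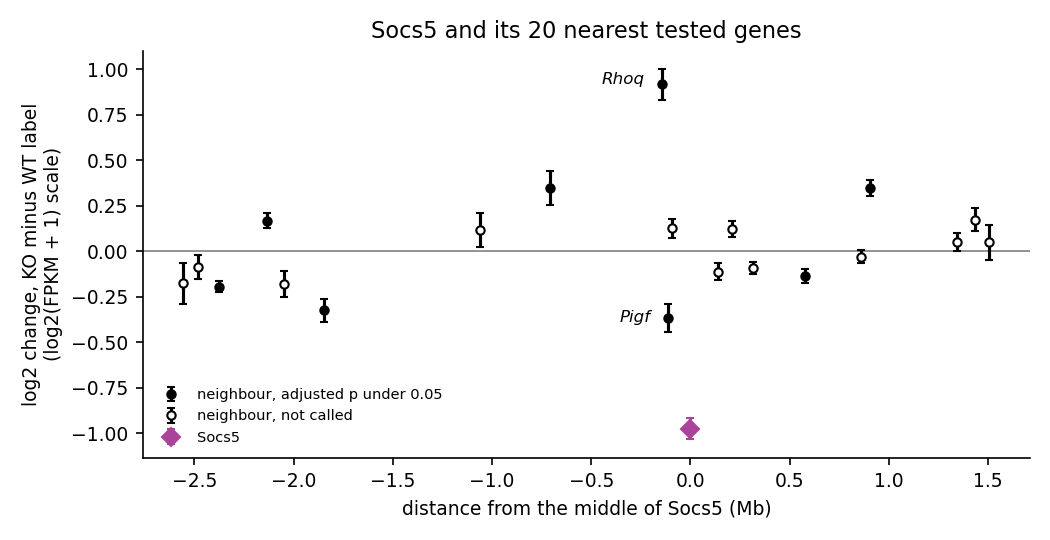
Log2 change between the labels, with its standard error, of Socs5 (diamond) and its 20 nearest tested genes, by distance from the middle of Socs5 in Mb. Filled circles are called genes and open circles are not. Socs5 lies at -0.98, below all 20 neighbours, while Rhoq lies at 0.92.

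Socs1 and Socs3 are the members that inhibit JAKs directly, through a short kinase inhibitory region. Socs1 is known as the main brake on interferon signalling and Socs3 as that on interleukin-6 family receptors that use gp130. Because both were lower, the RefSeq promoter windows of both are shown (GRCm38.p6, 250 bases before to 50 after a listed transcript start, written 5′ to 3′ on the gene's strand). Capitals in the Socs1 window (chr16:10785487-10785786, minus strand) mark 2 overlapping copies of an element read by interferon regulatory factors, searched as GAAA, any 2 bases and GAAA. Those in the Socs3 window (chr11:117969317-117969616, minus strand) mark TTCNNNGAA, the form bound by STAT dimers.
Socs1: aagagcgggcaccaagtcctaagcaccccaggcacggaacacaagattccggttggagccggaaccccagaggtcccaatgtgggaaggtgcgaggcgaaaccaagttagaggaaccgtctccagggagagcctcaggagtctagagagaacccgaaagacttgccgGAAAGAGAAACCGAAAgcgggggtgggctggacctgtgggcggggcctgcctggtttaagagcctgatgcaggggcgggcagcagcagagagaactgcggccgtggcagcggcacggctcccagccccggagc
Socs3: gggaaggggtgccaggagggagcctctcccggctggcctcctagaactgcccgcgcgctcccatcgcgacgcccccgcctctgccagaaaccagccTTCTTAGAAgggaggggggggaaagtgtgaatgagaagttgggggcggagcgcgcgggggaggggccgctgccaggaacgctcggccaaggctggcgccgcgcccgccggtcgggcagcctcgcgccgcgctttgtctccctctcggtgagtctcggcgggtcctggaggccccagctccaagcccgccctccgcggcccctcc
The Socs1 copies, GAAAGAGAAA and GAAACCGAAA, begin 83 and 77 bases before the listed start, and the Socs3 match, TTCTTAGAA, begins 154 bases before it. Both strands were searched. Of 32851 promoter windows of the same length, 3.44% hold the GAAA pair and 8.3% hold TTCNNNGAA. Windows were found for 6 of the 10 genes (Socs1, Socs3, Socs4, Cish, Pias1 and Pias3) and not for Socs2, Socs5, Socs6 and Socs7. TTCNNNGAA was matched in 2 of the 6 genes, Socs3 and Cish, and the GAAA pair in 1, Socs1. The GAAA pair was added to the search after the Socs1 promoter had been seen, so its match there is no test. TTC and GAA with 4 bases between them, the spacing that STAT6 prefers, was matched in 0 of the 6, against 6.95% of all windows.

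Socs3 (ENSMUSG00000053113.3, chromosome 11, 117966079 to 117970047, minus strand) was measured at 5.28 and 4.76 FPKM in the WT-labelled pair and at 3.71 and 3.13 FPKM in the KO-labelled pair. The groups did not overlap, and the gap between them was larger than the gap within either. On the log2 scale Socs3 changed by -0.45 ± 0.098 (SE; limma, adjusted p = 0.0164), with a 95% interval of -0.70 to -0.20, and the ratio of the means was 0.682. Its single coding transcript of 2552 bases gives about 190 and 131 fragments against 89 and 84, so counting alone leaves an appreciable error. The call was lost without WT replicate 1 (limma, adjusted p = 0.0864), as it was when KO replicate 2 was left out (0.0568). Of the 20 tested genes nearest to Socs3, 11 were lower and 2 higher, beside 23.3% and 24.4% of all tested genes. The median of the 20 was -0.20, and chromosome 11 had a median of -0.10 with 316 of 887 other genes lower. The part of this regional shift in the value of Socs3 was not tested.

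Socs1 (ENSMUSG00000038037.5, chromosome 16, 10782240 to 10785536, minus strand) stood at 8.94 and 9.17 FPKM in the WT-labelled pair and at 7.49 and 7.9 FPKM in the KO-labelled pair. Both libraries labelled KO were below both labelled WT, by a small margin. On the log2 scale it changed by -0.21 ± 0.059 (SE; limma, adjusted p = 0.0351), with a 95% interval of -0.36 to -0.06 and a ratio of means of 0.85. A change at least this large was seen in 44.4% of all tested genes. The call was lost in 6 of 14 alternatives, among them the omission of each library in turn (limma, adjusted p from 0.0619 to 0.154). Its 20 nearest tested genes had a median of 0, with 2 higher and 2 lower, beside 24.4% and 23.3% of all tested genes.

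**Figure D3:**
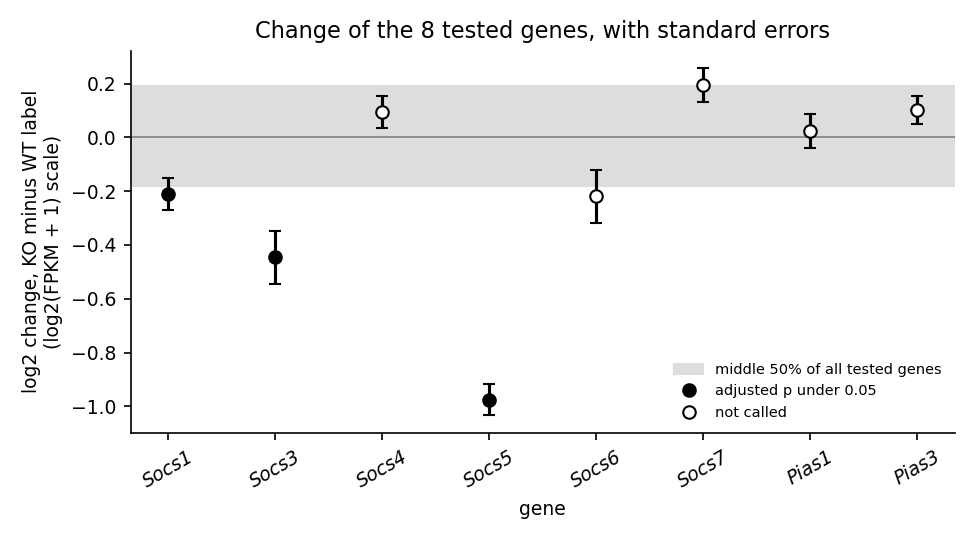
Log2 change (KO label minus WT label, log2(FPKM + 1) scale) of the 8 tested genes, with bars for standard errors. Filled points have an adjusted p under 0.05 and open points do not, and the grey band spans the tested genes between the lower and the upper quartile, from -0.18 to 0.19. Socs5 at -0.98 and Socs3 at -0.45 lie well below the band, and Socs1 at -0.21 lies near its edge.

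Cish and Socs2 were the low members, with means under 1 FPKM, and were not tested. Both are known as STAT5 target genes that dampen growth hormone and related signals. Cish was at 0.366 and 0.434 FPKM in the WT-labelled pair and at 0.298 and 0.224 FPKM in the KO-labelled pair. When scaled by relative depth, these 4 values were whole multiples of 1 fragment, within a tolerance of 0.1 fragment, and gave 11 and 10 against 6 and 5 fragments. These are the smallest whole numbers that do so. With no filter, the difference was -0.15 ± 0.058 (SE; limma, adjusted p = 0.125) and was not called. Socs2 was at 0.258 and 0.182 FPKM against 0.521 and 0.563 FPKM, and its mean in the KO-labelled pair was 2.46 times that in the other. On its longest coding transcript of 2222 bases this amounts to about 8 and 4 against 11 and 13 fragments. With no filter, Socs2 was called higher, at 0.34 ± 0.057 (SE; limma, adjusted p = 0.0166), where 31.0% of 16191 genes were called. This scale understates changes at such low levels, and a handful of fragments carries the value. The Cish window (chr9:107296409-107296708, plus strand, GRCm38.p6) is shown because it holds a tandem pair of TTCNNNGAA, in capitals.
Cish: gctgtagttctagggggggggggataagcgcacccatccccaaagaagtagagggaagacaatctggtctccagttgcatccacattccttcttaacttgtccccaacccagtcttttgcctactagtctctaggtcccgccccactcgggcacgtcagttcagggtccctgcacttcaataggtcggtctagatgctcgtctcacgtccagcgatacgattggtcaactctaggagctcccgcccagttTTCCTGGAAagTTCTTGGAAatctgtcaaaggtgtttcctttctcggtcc
The pair, TTCCTGGAA and TTCTTGGAA, starts at the listed transcript start itself and is separated by only a short spacer.

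Socs6 and Socs7 form another related pair, known from work on insulin and growth factor receptors. Socs6 (chromosome 18, 88665224 to 88927481, minus strand) stood at 6.11 and 7.01 FPKM in the WT-labelled pair and at 5.92 and 5.07 FPKM in the KO-labelled pair. Its replicates were 0.17 and 0.19 apart on the log2 scale, nearly as far as the groups. The difference of -0.22 ± 0.10 (SE; limma, adjusted p = 0.126) was not called in any of 14 alternatives, and its 95% interval ran from -0.47 to 0.03. Socs7 (chromosome 11, 97362551 to 97398542, plus strand) was at 6.98 and 6.67 FPKM against 7.72 and 8.18 FPKM. Here both libraries labelled KO were the higher ones. The difference, 0.19 ± 0.063 (SE; limma, adjusted p = 0.0542), just missed the threshold, with a 95% interval of 0.03 to 0.35 before adjustment. It passed in 4 of 14 alternatives, namely a pseudocount of 0.1, upper-quartile scaling, no variance trend and robust moderation (adjusted p from 0.0412 to 0.049). Whether Socs6 and Socs7 differed from each other in their change was not tested.

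Pias1 and Pias3 encode nuclear proteins first described as inhibitors of activated STATs. Pias1 (chromosome 9, 62878368 to 62987924, minus strand) stood at 6.24 and 6.1 FPKM in the WT-labelled pair and at 6.15 and 6.43 FPKM in the KO-labelled pair. It was the only tested member whose groups overlapped, and its difference was 0.02 ± 0.063 (SE; limma, adjusted p = 0.769), with a 95% interval of -0.14 to 0.18. Pias3 (chromosome 3, 96696384 to 96706070, plus strand) was at 12.7 and 12.2 FPKM against 13.2 and 13.7 FPKM. Its groups were separate but close, and the difference of 0.10 ± 0.052 (SE; limma, adjusted p = 0.166) was not called, with a 95% interval of -0.03 to 0.23. The 3′ end of Pias3 meets that of Nudt17 on the opposite strand, and the handling of strand by the authors is not given in the sources used here. In all, 7 of the 8 tested members (87.5%) had groups that did not overlap, beside 77.5% of all tested genes. They were lower under the KO label for 4 members and higher for 3, where 38.2% and 39.4% of all tested genes were so.

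The order of the levels differed between the labels. In the WT-labelled pair, Socs5 was highest, followed by Pias3, Socs1, Socs4, Socs7, Socs6, Pias1 and Socs3, and then at a distance by Cish and Socs2. The ranges of Socs7 and Socs6, and of Socs6 and Pias1, overlapped between replicates. In the KO-labelled pair, Pias3 was highest, followed by Socs5, Socs4, Socs7, Socs1, Pias1, Socs6 and Socs3, with Socs2 above Cish. There the ranges of Socs5 and Socs4 overlapped, as did those of Socs7 and Socs1. The 8 SOCS genes summed to 55.4 and 55.1 FPKM in the WT-labelled pair and to 43.2 and 43.6 FPKM in the KO-labelled pair. Socs5 made up 35.1% and 33.5% of that sum, against 20.5% and 21.7%. Without Socs5, the sums were 36 and 36.7 FPKM against 34.3 and 34.1 FPKM, so most of the difference in the sum lay in this 1 gene. The share of Socs3 was 9.51% and 8.63% against 8.59% and 7.18%.

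**Figure D4:**
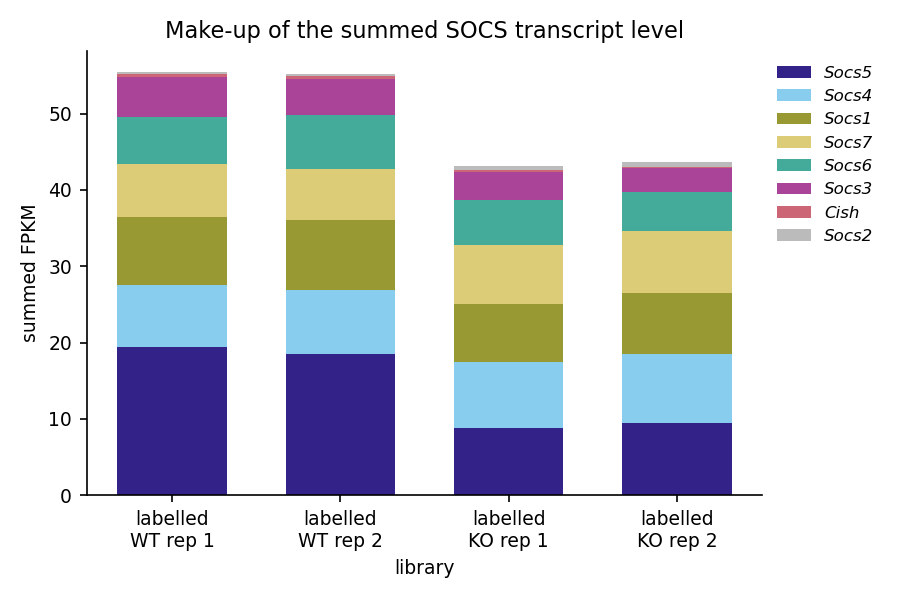
Summed FPKM of the 8 SOCS genes in each library, stacked by gene. The sum is 55.4 and 55.1 FPKM in the WT-labelled pair and 43.2 and 43.6 FPKM in the KO-labelled pair, and the Socs5 segment at the base accounts for most of the gap.

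Other brakes on the pathway moved in both directions. Of 9 tested genes, 4 were higher and 1 lower in the KO-labelled pair (55.6%, beside 47.6% of all tested genes). Of all tested genes, 24.4% were higher and 23.3% lower. The median log2 change of the 9 was 0.10. The remaining PIAS genes were both higher. Pias2 went from 16.7 and 17 FPKM to 20.8 and 20.5 FPKM (0.28 ± 0.042, SE; limma, adjusted p = 0.00515), and Pias4 from 7 and 7.9 FPKM to 9.12 and 10 FPKM (0.32 ± 0.081; adjusted p = 0.0253). The call of Pias2 held in all 14 alternatives, while that of Pias4 was lost without WT replicate 1 (limma, adjusted p = 0.118), without KO replicate 2 (0.104) and with no filter (0.0527). Usp18, which removes ISG15 and blocks the type I interferon receptor, was lower, at 42.3 and 45.4 against 31.8 and 31.8 FPKM (-0.45 ± 0.045, SE; limma, adjusted p = 0.0015). The ubiquitin ligase gene Cbl (0.20; limma, adjusted p = 0.0374) and the phosphatase gene Ptpn2 (0.13; adjusted p = 0.0489) were higher by small margins. The call of Cbl was lost in 6 of 14 alternatives, among them the omission of any library (limma, adjusted p from 0.0629 to 0.176). That of Ptpn2 was lost in 7 of 14, namely without either WT-labelled library (limma, adjusted p = 0.123 and 0.19), without KO replicate 2 (0.17), with no filter (0.0667), with median-of-ratios scaling (0.0556), without a variance trend (0.0889) and with the replicate number as a block (0.0781). The phosphatases Ptpn1 and Ptpn11 and the adaptor Sh2b3 were not called.

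Of 11 tested elongin, cullin ligase and NEDD8 pathway genes, 2 were higher and 2 lower (36.4%, beside 47.6% of all tested genes). They cover the ligase that SOCS boxes recruit and also Cul2 and Rbx1, and their median log2 change was -0.03. Cul5, the cullin that SOCS boxes recruit, was at 13.9 and 12.7 against 13.2 and 13.1 FPKM (-0.01 ± 0.059, SE; limma, adjusted p = 0.89). Its RING partner Rnf7 and elongin B (Tceb2) were not called either. Elongin C (Tceb1), the adaptor that grips the SOCS box, was higher at 92.5 and 84.3 against 115 and 120 FPKM (0.40 ± 0.052, SE; limma, adjusted p = 0.00316). The NEDD8-activating subunit Uba3 was higher by 0.15, and Rbx1 (-0.27) and Nedd8 (-0.11) were lower. Uba3 and Nedd8 each lost their call with the omission of either WT-labelled library or of KO replicate 1 (limma, adjusted p from 0.0504 to 0.0817 and from 0.0729 to 0.141), and Nedd8 also with no filter (0.0515) and without a variance trend (0.108). Of 13 genes of the SUMO pathway on which PIAS proteins act, 4 were higher and 3 lower (53.8%, beside 47.6% of all tested genes). The median log2 change of the 13 was 0.005. Those higher included the SUMO protease gene Senp6 (0.29), Sumo3 (0.15) and Sae1 (0.11), a subunit of the SUMO-activating enzyme, and those lower included the proteases Senp5 (-0.22) and Senp3 (-0.18). Each of these 5 genes lost its call when at least 1 of the libraries was left out (limma, adjusted p up to 0.113).

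Among receptors, JAKs and STATs, 6 of 24 tested genes were higher and 11 lower, beside 24.4% and 23.3% of all tested genes. The share called was 70.8%, beside 47.6%, and the median log2 change was -0.09. The largest rises were those of the common gamma chain Il2rg (0.62), Stat5b (0.54), the erythropoietin receptor Epor (0.51) and Il10rb (0.33). Il2rg was near the floor, at 0.63 and 0.82 FPKM in the WT-labelled pair and 1.54 and 1.74 FPKM in the KO-labelled pair. It passed the filter only through the pair in which it was high. The largest falls were those of the growth hormone receptor Ghr (-0.72), Jak3 (-0.69), the interleukin-4 receptor Il4ra (-0.65) and the oncostatin M receptor Osmr (-0.55). Jak3 lost its call without WT replicate 2 (limma, adjusted p = 0.0556). Of 19 ligand genes, 12 were below the filter, and Ifng and Il10 were at 0 in every library. Among the 7 tested, Lif, a cytokine that signals through gp130, was higher by 0.27 (limma, adjusted p = 0.0198), and Clcf1, another of that family, was lower at 26.5 and 26 against 17.8 and 19.2 FPKM (-0.49 ± 0.051, SE; adjusted p = 0.0017). Lif was not called after omission of any library (limma, adjusted p from 0.0589 to 0.105). Calls over these 5 lists ranged from 28.6% (ligands) to 70.8% (receptors, JAKs and STATs) of their tested genes, beside 47.6% of all genes.

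**Figure D5:**
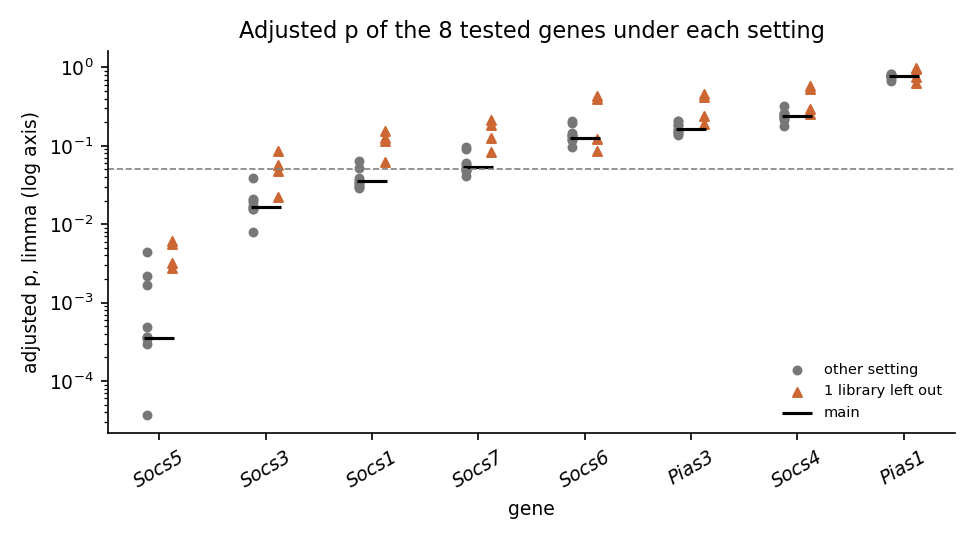
Adjusted p (limma, log axis) of the 8 tested genes under each setting: bars for the value reported, grey circles for other settings, orange triangles for fits with 1 library left out. The dashed line is at 0.05. All values of Socs5 lie below it, those of Socs3 and Socs1 cross it, and so do those of Socs7, which lie above it in 10 of 14 alternatives.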

How the data were processed

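The reads were handled with Cufflinks 2.2.1, SAMtools 0.1.19, Bowtie2 2.2.3 and TopHat2 2.0.13 on build mm10, per the submitters' processing notes; settings, annotation and handling of strand are not given in the sources used here. Per the labels' protocols, the TruSeq stranded mRNA chemistry was used. The authors deposited FPKM values per gene symbol. Since Cufflinks sums over isoforms, counts were not recovered over the whole table and no count test was run; of Cish and Socs2, the members tried, whole fragment numbers were recovered for Cish.

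Values were transformed to log2(FPKM + 1), which understates changes of low genes. Genes averaging 1 FPKM or more across the 4 libraries were tested with limma 3.58.1 (R 4.3.3; lmFit, eBayes with a mean-variance trend), two-sided, with Benjamini-Hochberg adjustment over all genes; the fit was tested on simulated data. The 14 alternatives changed the pseudocount, filter, scaling, moderation or replicate block, or left out 1 library. Errors are SD of FPKM or SE of log2 changes.

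The members, lists and tests were chosen with earlier results of these data known. All members were named, as was each called gene of a list, or the 4 largest where over 5 were called in 1 direction, apart from some that are not reported here. The motif of interferon regulatory factors was added after the Socs1 promoter had been seen. Coordinates are from GENCODE M21 (GRCm38, the assembly of mm10), and promoters from RefSeq. Depth was estimated from the steps between values up to 0.1 FPKM, where 90.8% to 91.9% of ratios between libraries lay within 1% of ratios of whole numbers up to 6, and from 247 genes with 1 transcript, of which 165 lay within 3% of the fitted line. Fragment numbers are estimates. The rest was computed in Python 3.11.15 (pandas 2.3.3, numpy 2.4.6) and drawn with matplotlib 3.10.9.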

Additional observations from a re-analysis of the deposited data

How the results depend on the processing

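Among 111 values of the 8 tested genes over the alternatives, 98 kept their direction and their side of the threshold, 8 lost a call, 4 gained one and 1 changed sign. The sign changed for Pias1, which was not called, at -0.0031 without KO replicate 2; its values with 1 library left out reached from there to 0.052. With 1 library left out, the number of the group's genes called ranged from 1 to 2, against 3 with all libraries, and the number of all genes called from 3216 to 3974, against 5159. Only Socs5 was called without WT replicate 1 or without KO replicate 2. With no filter 3 were called, Socs2 taking the place of Socs1. With the replicate number as a block, 4673 genes and 2 of the group were called, and Socs1 was lost (limma, adjusted p = 0.0527). Replicate differences of the 2 groups correlated at only 0.138 over 10827 genes, and the labels do not say that numbers pair libraries. Other scalings moved the median of all genes by at most 0.007 (log2). With a filter of 5 FPKM, Socs3 had no value. Depth limits Cish and Socs2, which rest on few fragments.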
